A study of Mus musculus with 6 samples.

Results

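The chemokine receptor genes of mouse chromosome 9 were described in 6 ATAC-seq peak lists from white blood cells. ATAC-seq cuts accessible DNA with the Tn5 transposase, so a peak marks open chromatin. The 8 genes were Ccr1, Ccr1l1, Ccr2, Ccr3, Ccrl2, Ccr9, Cxcr6 and Xcr1. A peak was taken when its summit, its highest point, lay inside one of these genes, within 3 kb of an annotated start (GENCODE, GRCm39), or between neighbouring genes of the cluster. Peaks of different libraries that shared at least 1 bp were joined into a region, and this gave 45 regions here of 62876 in the genome. Of the 45, 12 lay at starts, 5 in gene bodies and 28 between these receptor genes. Some of the 28 lay inside Fyco1 or at the starts of other genes. The 3 control libraries came from male C57BL/6j mice kept in normoxia throughout. The 3 libraries of high-altitude de-acclimatization (HADA) came from male C57BL/6j mice that had been held in a hypobaric hypoxia chamber and then returned to normoxia. The cells were peripheral blood leukocytes left after red cell lysis, not sorted further, and the time of this sampling is not given in the sources used here. The labels do not say whether replicates were separate animals, so the p-values measure only the spread between these libraries. The comparison asks how the accessibility of receptors of myeloid cells and of lymphocytes, which share one locus, differed after HADA.

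Chemokine receptors are G protein-coupled receptors that steer leukocytes along gradients of small secreted proteins, and many of them lie in clusters that arose by duplication. Ccr1 is a receptor of neutrophils and monocytes that binds Ccl3 and Ccl5. Ccr1l1 is its closely related neighbour. Ccr2 brings inflammatory monocytes out of the marrow toward Ccl2, Ccr3 is the eotaxin receptor of eosinophils, and Ccrl2 is an atypical receptor that binds chemerin (gene Rarres2). Ccr9 directs T cells to the gut and thymus toward Ccl25. Cxcr6 marks effector T cells and natural killer T cells and binds Cxcl16, and Xcr1 marks cross-presenting dendritic cells and binds Xcl1.

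On GRCm39, 7 of the genes lay within 406 kb. Their order was Ccr9 (chr9:123507181-123613395, + strand), Cxcr6 (chr9:123635534-123640825, +), Xcr1 (chr9:123681380-123691094, −), Ccr1 (chr9:123762161-123768734, −), Ccr1l1 (chr9:123777280-123778445, −), Ccr3 (chr9:123822009-123831726, +) and Ccr2 (chr9:123901982-123913594, +). Ccrl2 (chr9:110883554-110886591, −) lay 12.6 Mb away on the same chromosome, so no region between it and the others was counted. Cxcr6 lies inside Fyco1 on the opposite strand. The annotated Ccr9 gene has long transcripts that begin at the start of Slc6a20a and span Lztfl1, while its canonical start is at position 123596276.

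The sequence around the summit, 100 bases on each side on GRCm39, is printed for 5 regions on which the comparison turns. The start and the intron of Ccr1 and a region between Ccr3 and Ccr2 had lower peaks in HADA. A region upstream of the canonical Ccr9 start and a region between Ccr1l1 and Ccr3 had higher ones. Capitals mark short words known from the motifs of blood factors, described further on.
Ccr1 start, chr9:123768484-123768684, + strand: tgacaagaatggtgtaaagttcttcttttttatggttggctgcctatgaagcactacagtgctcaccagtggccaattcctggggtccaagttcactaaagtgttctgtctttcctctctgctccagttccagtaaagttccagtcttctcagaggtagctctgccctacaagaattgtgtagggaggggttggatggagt
Ccr1 intron, chr9:123764889-123765089, + strand: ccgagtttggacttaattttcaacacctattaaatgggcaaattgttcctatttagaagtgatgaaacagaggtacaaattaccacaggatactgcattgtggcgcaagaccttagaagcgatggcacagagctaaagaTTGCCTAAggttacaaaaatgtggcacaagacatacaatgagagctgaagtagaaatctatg
Ccr3-Ccr2 interval, chr9:123856299-123856499, + strand: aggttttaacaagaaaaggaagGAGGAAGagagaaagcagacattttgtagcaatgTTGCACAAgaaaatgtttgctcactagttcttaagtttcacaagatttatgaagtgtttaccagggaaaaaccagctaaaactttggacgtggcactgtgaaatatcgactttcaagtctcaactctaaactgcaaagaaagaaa
Ccr9 far upstream region, chr9:123583589-123583789, + strand: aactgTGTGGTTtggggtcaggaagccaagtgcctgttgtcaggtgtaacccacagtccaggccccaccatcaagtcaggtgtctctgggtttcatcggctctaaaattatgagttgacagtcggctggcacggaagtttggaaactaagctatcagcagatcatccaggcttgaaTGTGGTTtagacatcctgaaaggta
Ccr1l1-Ccr3 interval, chr9:123786183-123786383, + strand: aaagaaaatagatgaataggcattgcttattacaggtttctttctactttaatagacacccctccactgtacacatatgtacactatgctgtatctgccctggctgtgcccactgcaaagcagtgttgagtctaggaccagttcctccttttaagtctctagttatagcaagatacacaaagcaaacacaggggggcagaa

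The 6 lists held 34045 to 45799 peaks, fewest in control 3. Height was measured as the summit pileup, the number of fragments stacked at the summit, which was solved from the deposited fold and p-value. Genome-wide, the background pileup was 1.69 to 2.34 fragments. The median pileup of regions shared by all lists was 58, 55 and 49 in the controls and 92, 77 and 81 in HADA. Raw pileups of a typical region were thus higher in HADA. Control 3 stood apart from the other libraries in its marker genes. Its summed height at the starts of 11 B cell genes was 28.4 times background against 173 to 257 in the other controls, and at 12 neutrophil genes it was 643 against 269 to 368. Genes without a peak entered these sums as 0. Of the B cell genes, Cd79a, Ebf1, Blk, Cr2, Fcer2a, Cd22 and Vpreb3 had no peak in control 3. Leaving control 3 out of the main fit ended 1 of 12 calls at the receptor genes, that of region 2 between Xcr1 and Ccr1. Read depth is unknown from peak lists, and a library with no peak in a region may still hold reads there.

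The cluster was open in every library, and the interval between Xcr1 and Ccr1 held more of its regions than any other interval or gene. The controls had 32, 31 and 30 peaks that met the rule and the HADA libraries 34, 32 and 32. The means were 31.0 ± 1.00 and 32.7 ± 1.15 (SD, n = 3 each), and the two-sided exact permutation p was 0.3, where 0.1 is the smallest that 3 against 3 allows. The direction turned when peaks were counted per 10000 of the list, with 8.02 ± 0.696 in control and 7.30 ± 0.337 in HADA (exact permutation p = 0.2). The interval from Xcr1 to Ccr1 held 12 regions, against 5 each in the intervals Cxcr6 to Xcr1, Ccr1l1 to Ccr3 and Ccr3 to Ccr2, and 1 between Ccr9 and Cxcr6. No region met the rule at or in Ccr3 in any library.

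**Figure D1:**
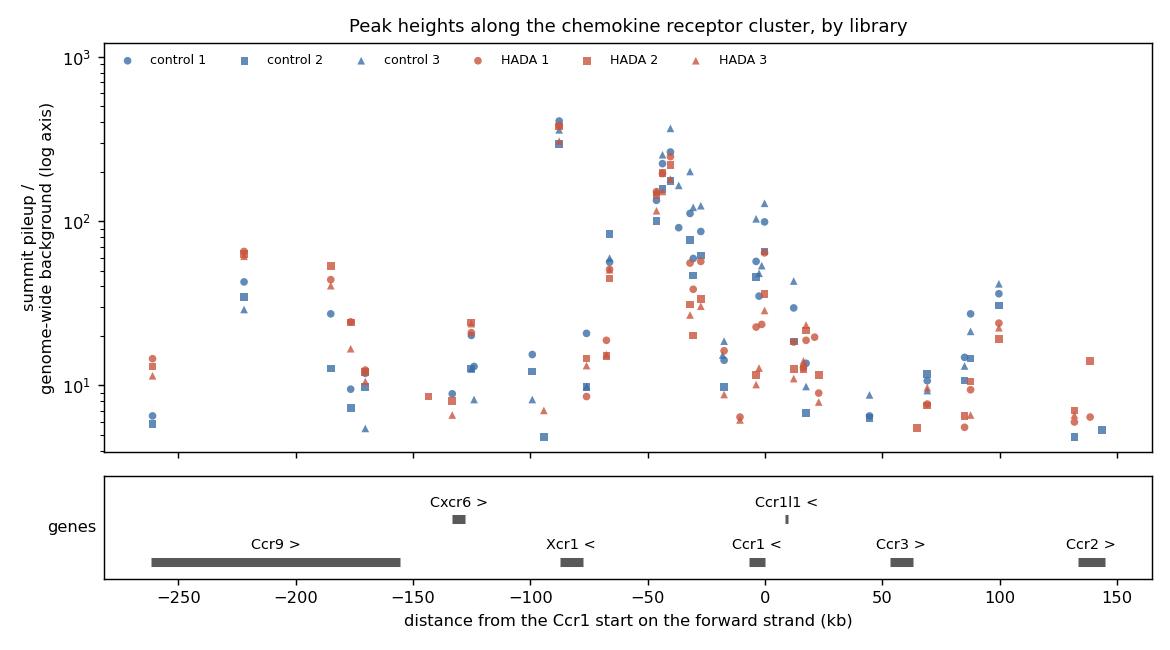
Summit pileup over the genome-wide background (log axis) of every peak of the cluster against its distance from the Ccr1 start in kb, one point per library, with gene bodies and their direction below; Ccrl2 is off the map. The Fyco1 start, left of Xcr1, stands at 294 to 407 times background and is the highest peak in every library but control 3.

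The highest region of the cluster in every library but control 3 was the start of Fyco1 (chr9:123680008-123681427), a gene of autophagosome transport that is not a chemokine receptor. Its mean height over background was 354 ± 56.7 in control and 355 ± 41.6 in HADA. The 50 bases at its summit occur at 3 places in the genome, all inside this region, so the placement of reads within it is uncertain. Between Xcr1 and Ccr1, 3 regions 31430 to 37372 bp upstream of Xcr1 reached 99.8 to 367 times background in every library. The middle one spans the annotated start of Gm57020 and the one nearest Ccr1 that of Gm69347, both long noncoding RNA genes. The neighbourhood of these 3 regions was itself open: the local background that the peak caller used was 30.9 to 101 times the genome-wide value there, at the 99.7th percentile of each list or higher. At the Ccr1 start the local background was 16.0, 11.8 and 25.2 times the genome-wide value in the controls and 8.50, 4.91 and 4.20 in HADA. Every HADA value of the local background at Ccr1 was thus lower than every control value.

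**Figure D2:**
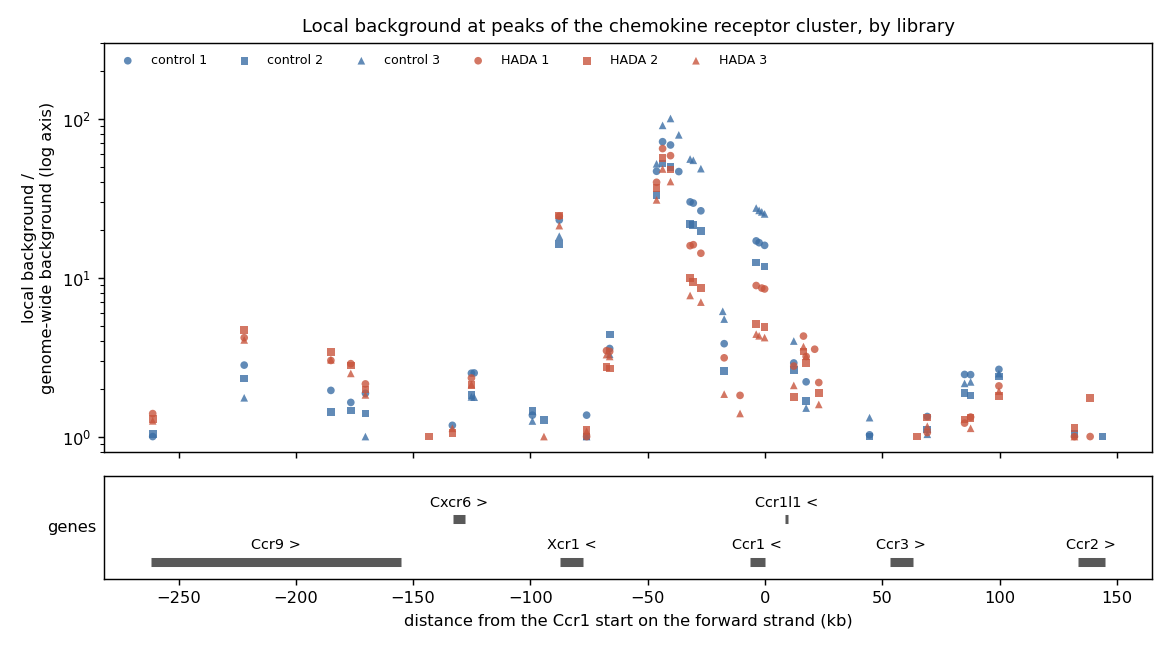
Local background at each peak over the genome-wide background (log axis) against distance from the Ccr1 start in kb, by library. It was highest between 50 and 40 kb left of the Ccr1 start, and at Ccr1 the controls (11.8 to 25.2 at its start) lay above the HADA libraries (4.20 to 8.50).

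Of the 45 regions, 19 had a peak in all 6 lists and could be tested on height. The test was limma on log2 pileup, centred in each library on the median of the 23970 regions that all lists shared, with Benjamini-Hochberg adjustment over those 23970. In HADA 10 of the 19 were lower, 2 were higher and 7 passed in neither direction at an adjusted p of 0.05. The same fit called 24.1% of all shared regions lower and 17.9% higher. The median log2 difference was -0.73 over the 19 and -0.04 over all shared regions. Scaled to the genome-wide background instead of the median, which raises the median shared region by 0.34 in HADA, 7 of the 19 were lower and 2 higher, beside 18.3% and 31% of all shared regions. By the rank of the deposited fold, which is taken over the local background, 1 was lower and 3 were higher, beside 4.79% and 6.57%. Height and fold therefore called different regions. Of the 12 regions called by height, the Ccr1 intron alone was called in the same direction by fold rank. All 4 calls by fold rank were lost with the replicate block and when any 1 HADA library was left out. In bulk blood, fewer cells of a type and less open chromatin per cell cannot be told apart.

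**Figure D3:**
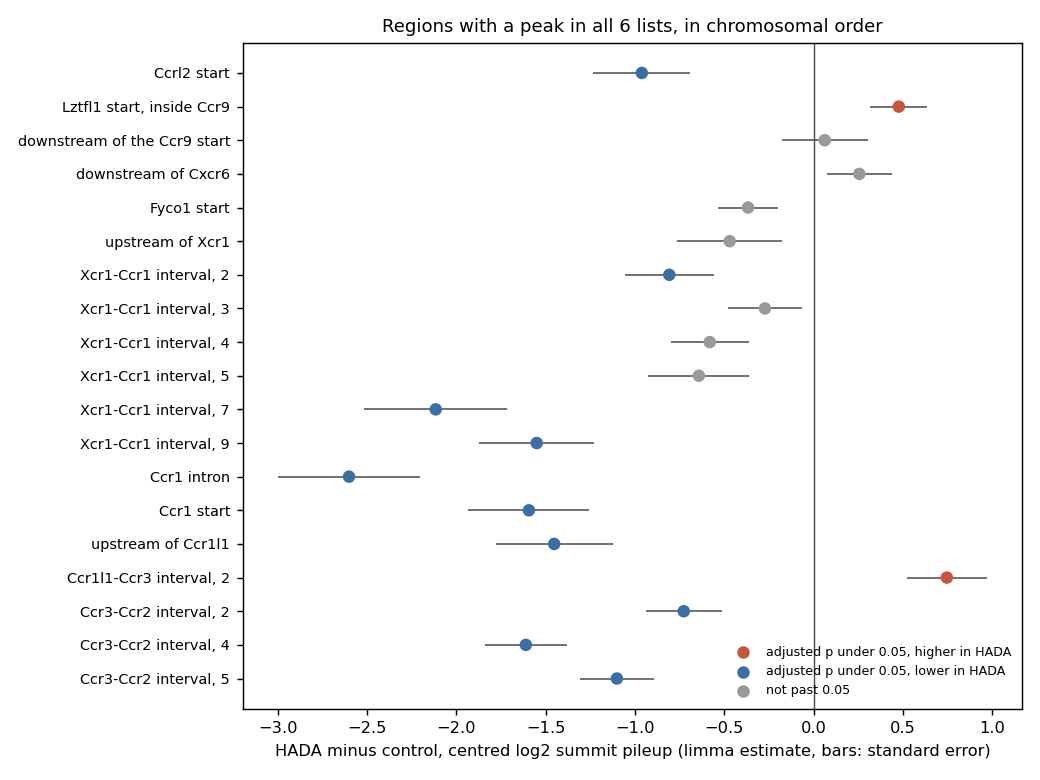
HADA minus control in centred log2 summit pileup for the 19 regions shared by all lists, in order along the chromosome, with the limma standard error as bars. Regions called lower are the Ccrl2 start, 3 in the Xcr1-Ccr1 interval, the Ccr1 start and intron, the region upstream of Ccr1l1 and 3 in the Ccr3-Ccr2 interval, with the lowest value at the Ccr1 intron (-2.60), and those called higher are the Lztfl1 start (0.48) and a region between Ccr1l1 and Ccr3 (0.75).

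Ccr1 had lower peaks in HADA at its start and in its intron. At its start (chr9:123768267-123769039, summit 150 bp downstream of the start) the pileup was 167, 134 and 235 in the controls and 150, 72 and 65 in HADA. Over background these were 97.5 ± 31.6 and 42.9 ± 18.7 (SD, n = 3), a ratio of 0.440, and the groups did not overlap once scaled (exact permutation p = 0.1). The limma difference was -1.59 ± 0.34 (log2, SE), adjusted p = 0.013. It was -1.31 without control 3, and without HADA 2 the adjusted p was 0.052. The deposited fold went the other way, at 6.0, 5.35 and 5.01 in the controls and 7.23, 6.78 and 6.26 in HADA. All 3 HADA folds were above all 3 control folds, while the adjusted p of the rank was 0.11, and the local background given above was lower in every HADA library.

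The intron of Ccr1 (chr9:123764736-123765480, 3745 bp downstream of the start) was lower by height and by fold. Its pileup was 96, 94 and 189 in the controls and 53, 23 and 23 in HADA. No HADA value reached the lowest control value even before scaling. The difference was -2.60 ± 0.40 with an adjusted p of 0.009, and the ratio over background was 0.215. The rank of its fold was lower too, by -1.13 on the normal score scale with an adjusted p of 0.025, the 1 region of the 19 that both measures called lower. That rank call was lost with the replicate block, with an adjusted p of 0.063, and with any 1 HADA library left out, with adjusted p from 0.062 to 0.10. Further regions within 3 kb of the start, 2495 and 1360 bp into the gene, had peaks in 3 and 2 lists and were not tested.

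Ccr1l1 and Ccrl2 were lower as well. The region nearest Ccr1l1 (chr9:123779958-123781340) lay 2569 bp upstream of its start, with pileups of 50, 38 and 79 in control and 43, 25 and 25 in HADA. After centring, every HADA value was below every control value, with a difference of -1.45 ± 0.33 and an adjusted p of 0.014, and the rank of the fold was -0.82 with an adjusted p of 0.074. Without HADA 2 the adjusted p of the height was 0.056. A 50-base stretch at its summit occurs at chr9:123780989-123781038 and again inside Ccr1 at chr9:123767011-123767060, and the summit of the Ccr1 region 1360 bp into the gene is likewise repeated at Ccr1l1, so the heights of both regions are uncertain. At the Ccrl2 start (chr9:110885226-110887274) the pileup was 76, 81 and 127 in control and 92, 63 and 67 in HADA, a difference of -0.96 ± 0.27 with an adjusted p of 0.026. That call was not kept on the background scale, where the difference was -0.58, and the rank of the fold was 0.20 in the other direction. It was also lost without HADA 1, HADA 2 or HADA 3, with adjusted p of 0.052, 0.089 and 0.079. A second Ccrl2 region, 1703 bp upstream (chr9:110888107-110888716), had 85, 70 and 117 in control against 50, no peak and 35 in HADA, so all its HADA peaks were lower than all its control peaks.

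Ccr2 and Ccr3 gave little signal. Upstream of Ccr2 (chr9:123900485-123901159, 1326 bp before the first start) a weak peak was called in control 2 with a pileup of 10 and in the 3 HADA libraries with 14, 14 and 15. A region inside the gene, 1691 bp past its inner start, had 15 and 28 in HADA 1 and HADA 2 and no peak elsewhere, and a region in an intron had 11 in control 2 alone. Apart from the 28 in HADA 2, these heights were 10 to 15, where the smallest pileup called in a list was 7 to 9. Ccr3, the eosinophil receptor, had no peak. Of 8 eosinophil and basophil marker genes, Epx, Mcpt8, Fcer1a, Cpa3 and Gata2 had none either, while Siglecf had a peak in 6 lists, Il5ra in 5 and Prg2 in 4.

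**Figure D4:**
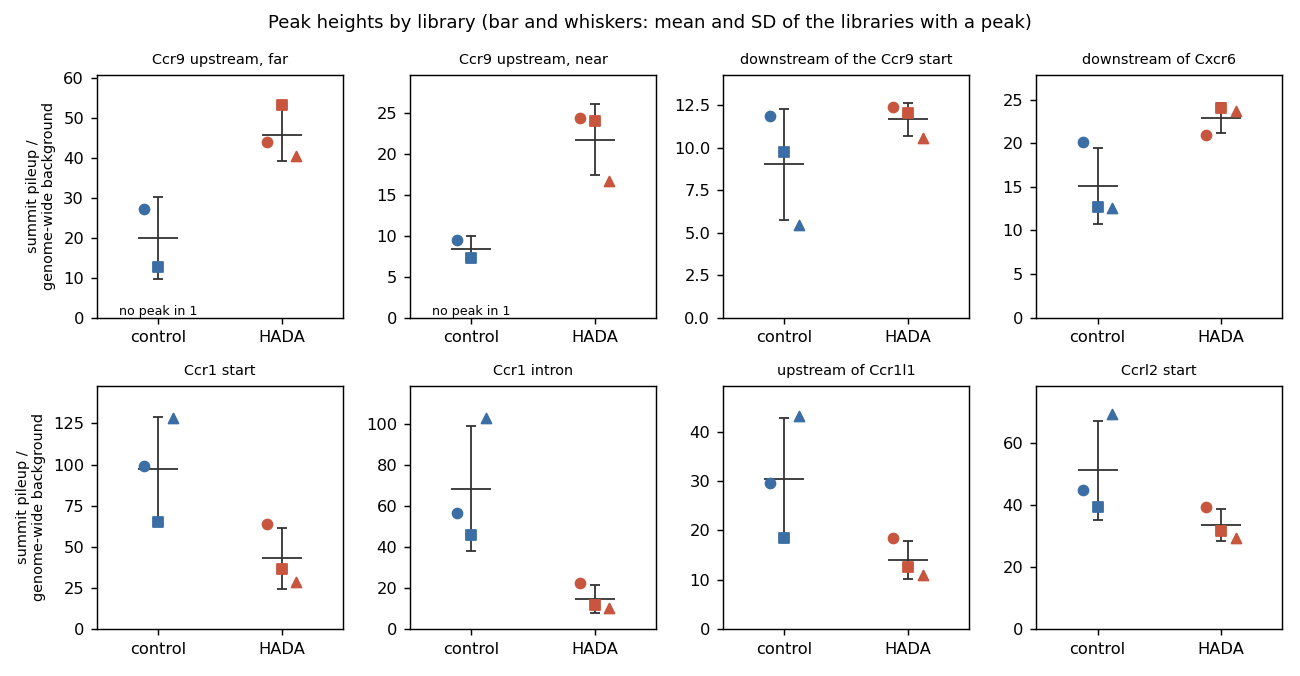
Summit pileup over the genome-wide background by library (circle, square and triangle are replicates 1, 2 and 3) at 8 regions, with the mean and SD of the libraries that had a peak. In the upper row the regions upstream of Ccr9 are higher in HADA, and in the lower row the regions of Ccr1, Ccr1l1 and Ccrl2 are lower in HADA.

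Upstream of the canonical Ccr9 start, peaks were higher in HADA than in the controls that had a peak. The region at chr9:123583316-123584066, in an intron of the long transcripts and 12545 bp upstream of the Ccr9 start at position 123596234, had pileups of 46 and 26 in controls 1 and 2, no peak in control 3, and 103, 106 and 92 in HADA. A nearer region 4057 bp upstream of the same start (chr9:123591972-123592793) had 16 and 15, no peak in control 3, and 57, 48 and 38. In both, every HADA value was above every control value before centring, where a typical shared region was also higher in HADA. Because control 3 lacked them, they were tested in a fit added after the data were seen, over the 27407 regions shared by the other 5 libraries, which called 17.6% of regions higher and 21.6% lower. The differences were 0.93 ± 0.25 with an adjusted p of 0.028 for the far region and 0.99 ± 0.18 with an adjusted p of 0.010 for the near one. This fit tested 22 regions of the receptor genes, of which 4 were higher, 10 lower and 8 neither, and 3 of the 4 were regions that control 3 lacked.

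Closest to the canonical Ccr9 start the groups overlapped after centring. The region 2121 bp downstream of a start (chr9:123597889-123599004) had 20, 20 and 10 in control and 29, 24 and 24 in HADA. Its difference was 0.06 ± 0.24 with an adjusted p of 0.85, and -0.20 when control 3 was left out. At the outermost start of Ccr9, which is also the start of the transporter gene Slc6a20a (chr9:123507181-123508157), pileups were 11 and 12 in controls 1 and 2, with no peak in control 3, and 34, 26 and 26 in HADA. That region gave 0.70 ± 0.16 with an adjusted p of 0.016 in the fit without control 3. The start of Lztfl1, a gene of cilia that lies within the long Ccr9 transcripts (chr9:123546264-123547064), rose from 72, 71 and 53 to 153, 126 and 139, by 0.48 ± 0.16 with an adjusted p of 0.044. The call was lost with the replicate block, with an adjusted p of 0.13, and without HADA 1, HADA 2, HADA 3 or control 1, with adjusted p of 0.13, 0.13, 0.15 and 0.061. Its adjusted p was 0.085 in the fit on 5 libraries, and the rank of its fold differed by 0.04 with an adjusted p of 0.85.

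Cxcr6 and Xcr1 had few peaks. The Cxcr6 start (chr9:123635145-123635671) had 15 in control 1, and 16 and 15 in HADA 2 and HADA 3, with no peak in the other libraries. A region 8067 bp downstream of the Cxcr6 start (chr9:123643197-123644149) was present throughout, with 34, 26 and 23 in control and 49, 48 and 54 in HADA. Over background its groups did not overlap, at 15.1 ± 4.34 and 22.9 ± 1.73 (exact permutation p = 0.1). Its centred height differed by 0.26 ± 0.18 with an adjusted p of 0.28, while the rank of its fold was higher by 0.66 with an adjusted p of 0.050. That rank call was lost with the replicate block, with an adjusted p of 0.100, and with any 1 of the 6 libraries left out, with adjusted p from 0.055 to 0.16. The Xcr1 region (chr9:123691957-123693088, 1609 bp upstream) had 35, 20 and 18 in control and 20, 29 and 30 in HADA. Its groups overlapped, and the difference was -0.47 ± 0.29 with an adjusted p of 0.22.

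Between Xcr1 and Ccr1 the fall in height was largest on the side of Ccr1. The region 31914 bp downstream of the Ccr1 start (chr9:123736572-123737284, numbered 7 in the plot of differences) had 188, 158 and 367 in control and 130, 62 and 61 in HADA, a difference of -2.12 ± 0.40 with an adjusted p of 0.011. Its fold rank was -0.20 with an adjusted p of 0.35. The next shared region (chr9:123740363-123742549, numbered 9) had 146, 127 and 227 against 133, 67 and 69, a difference of -1.55 ± 0.32 with an adjusted p of 0.012. By fold, region 9 was called the other way, with a rank higher by 0.77 and an adjusted p of 0.044. Its height call was lost without HADA 2, with an adjusted p of 0.051. The high regions 3, 4 and 5 (chr9:123722181-123723150, chr9:123723850-123725862 and chr9:123727905-123729255) had differences of -0.27, -0.58 and -0.64 with adjusted p of 0.31, 0.064 and 0.099. Region 3 was 0.11 on the background scale and higher by fold rank, by 0.68 with an adjusted p of 0.033. Region 2, 11440 bp upstream of Xcr1 (chr9:123701975-123702644), gave -0.81 with an adjusted p of 0.035 and from 0.015 to 0.12 with 1 library left out. It was not called on the background scale (-0.43, adjusted p = 0.22) or with quantile scaling (-0.79, adjusted p = 0.056). Moreover, 50 bases at its summit occur at 37 places in the genome. Region 6 had peaks of 154 and 302 in controls 1 and 3 alone, and region 8 had 100, 96 and 222 in control against 90 and 40 in HADA 1 and HADA 2.

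Between Ccr1l1 and Ccr2 regions moved in both directions. The region 7838 bp upstream of Ccr1l1 (chr9:123786105-123786747) had 23, 14 and 18 in control and 44, 43 and 53 in HADA. It was the 1 shared region between the receptor genes that rose in height, by 0.75 ± 0.22 with an adjusted p of 0.032, and its ratio over background was 2.10. The call was lost without HADA 1, HADA 2, HADA 3 or control 2, with adjusted p of 0.054, 0.098, 0.12 and 0.063, and the fold rank was 0.64 with an adjusted p of 0.15. Downstream of Ccr3, the region at 34390 bp (chr9:123856235-123856856) had 46, 30 and 39 in control and 22, 21 and 15 in HADA, a fall of -1.61 ± 0.23 with an adjusted p of 0.009. The region 33521 bp upstream of Ccr2 (chr9:123867807-123869037) had 61, 63 and 76 against 56, 38 and 51, with a difference of -1.10 ± 0.21 and an adjusted p of 0.010. Both were lower than every control after centring, and their fold ranks were -0.79 and -0.65 with adjusted p of 0.056 and 0.059. A weaker one 15927 bp downstream of the Ccr3 start (chr9:123837594-123838222) gave -0.73 with an adjusted p of 0.029, from 0.029 to 0.11 with 1 library left out, and -0.35 on the background scale, where its groups overlapped. A further region (chr9:123853598-123854064) had 25, 22 and 24 in control and 13 and 13 in HADA 1 and HADA 2.

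Some regions were called in one group alone. With peaks in 3 HADA and 0 control lists there were 3 of the 45, where 7.01% of all 62876 regions had this pattern. They lay 10089 bp upstream of Xcr1 with pileups of 44, 30 and 35, and 6703 and 13225 bp upstream of Ccr1l1 with 30, 25 and 32 and with 21, 23 and 18. With peaks in 3 control and 0 HADA lists there were 2, where the share over all regions was 1.88%. They lay in Fyco1 (chr9:123669174-123669926) with 26, 25 and 15, and 8687 bp upstream of Ccr3 (chr9:123812451-123813767) with 11, 13 and 16. Of the remaining 21 regions, 5 had a peak in 1 library, 4 in 2 libraries of one group, and 12 in libraries of both groups. A list without a peak does not mean closed chromatin.

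A contrast within each library does not depend on how libraries are scaled to each other. It was built from start regions tested above, 3 of them called lower. Its direction therefore repeats those calls and is no separate result. Ccrl2, one of them, lies outside the cluster. The mean log2 pileup of the start regions of Ccr1, Ccr1l1 and Ccrl2 minus that of the Ccr9 region 2121 bp from its start was 2.10, 1.90 and 3.73 in the controls and 1.53, 1.01 and 0.99 in HADA. Every HADA value was below every control value. The means were 2.58 ± 1.01 and 1.18 ± 0.31, a difference of -1.40, and -0.82 without control 3. The myeloid side leaves out Ccr3, which had no peak, and Ccr2, whose weak start peaks were in 1 control list and 3 HADA lists. The lymphocyte side of this contrast is 1 weak region, whose pileup was 10 in control 3. In log2 of the deposited fold the difference was -0.11.

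Windows of 201 bases around the summits were searched on both strands for short words of factors of blood cells. The C/EBP word TTGCNNAA, known from myeloid enhancers, stood in 11 of the 45 regions (24.4%) and in 8.73% of all 62876 windows of the same length. In the genome it was in 13.2% of the regions called lower and 5.01% of those called higher. Among the 19 tested regions it was in 4 of the 10 lower ones, including the Ccr1 intron and the Ccr3-Ccr2 region printed above, and in 1 of the other 9, the Lztfl1 start. The Runx word TGTGGTT was in 8 regions (17.8%, against 7.14% of all), and the far upstream region of Ccr9 holds it at 2 places. The PU.1 word GAGGAAG was in 5 (11.1%, against 11.8%). The antioxidant response word TGACNNNGC, bound by Nrf2, was in 3 (6.67%, against 8.17%), among them the Ccrl2 start and the region upstream of Ccr1l1, and not in the windows at Ccr1. The EBF word CCCNNGGGA was in 1 region, the near upstream region of Ccr9 (2.22%, against 4.60%). The AP-1 word TGANTCA was in 3 regions (6.67%, against 5.50%), the Ets word CCGGAAG in 1 (2.22%, against 3.92%) and the Gata word AGATAAG in 1 (2.22%, against 1.77%). The Egr2 word GCGTGGG was in 1 (2.22%, against 2.37%), and the T-box word AGGTGTGA in 0 (against 0.82%). Tcf7, searched as TTCAAAG with either T or A as its opening letter, was in 2 (4.44%, against 6.24%). Motifs of CTCF, searched as CNAGAGGGC with A or G as the fifth and G or T as the sixth letter, were in 3 (6.67%, against 5.29%). The PU.1 and Ets words overlap in their last letters. A match is a string of letters only, and a window without one says nothing of a factor.

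Genes elsewhere were ranked by how closely their start regions followed Ccr1 over the 6 libraries, as the root mean square difference of centred log2 pileup with each profile's own mean removed. Of 9995 start regions compared, the closest to Ccr1 was Ptafr, the platelet-activating factor receptor, at 0.078, with a difference of -1.58 between the groups. Rbms2, Tnfrsf1a, the Itgam region (annotated also as Gm49368) and C130050O18Rik followed at 0.096 to 0.12. The closest to the Ccr9 region were Cst7, Siah3, Pola2, Sec14l2 and Ctsb at 0.076 to 0.12, and their differences ran from -0.03 to 0.14. These profiles share libraries and depth, so the likeness is a description.

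The ligands and the other receptors were read at their starts in the same fit, in which 19.5% of 10002 start regions of protein-coding genes were higher and 6.68% lower. Of 14 ligand genes 4 could be tested and 1 fell, Ccl3, a ligand of Ccr1, by -0.88 ± 0.24 with an adjusted p of 0.024. Ccl2, the ligand of Ccr2, and Ccl9 had peaks in 3 control lists and no HADA list, and 6 ligand genes had no peak, among them Xcl1, the ligand of Xcr1, and Rarres2, which encodes the ligand of Ccrl2. Of 15 receptor genes outside the cluster 7 could be tested. Cxcr2, the neutrophil receptor, fell by -2.05 and Cx3cr1, a receptor of patrolling monocytes, by -1.11, with adjusted p of 0.011 and 0.009. Ccr7, which guides lymphocytes into lymphoid organs, rose by 1.11 with an adjusted p of 0.023. Near Cxcr5, the receptor that guides B cells into follicles, the tested region (chr9:44437188-44438406) rose by 1.48 with an adjusted p of 0.013, while the highest peak within 3 kb of a Cxcr5 start overlapped between the groups, at 61.0, 63.3 and 134 times background in control and 81.2, 93.4 and 87.1 in HADA. All 18 genes of receptor signalling were tested, and 1 passed, Gnb2, a G protein beta subunit, at -0.78 with an adjusted p of 0.039. By fold rank, none of these ligand and receptor genes nor Gnb2 passed, and 3 other signalling genes did, Arrb1 (0.98, adjusted p = 0.024) and Rgs1 (0.77, adjusted p = 0.033) higher and Grk2 (-0.71, adjusted p = 0.041) lower. Of 8 neighbouring genes that are no receptors 4 were tested, and Limd1 rose by 1.04 with an adjusted p of 0.012, besides Lztfl1, and neither passed by fold rank.

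Marker genes of blood cells also differed between the groups. Summed over background, 12 neutrophil genes had 269 to 643 in control and 136 to 239 in HADA, with 10 of the 12 detected and Camp and Ngp at none. The 12 monocyte genes had 305 to 426 and 229 to 282, although Ly6c2 and Ms4a6c, which were not tested, were higher in every HADA library than in every control. The 12 T cell genes, all but Cd8a detected, had 280 to 385 and 507 to 564, and the 11 B cell genes 28.4 to 257 and 631 to 716. The 9 NK cell genes had 25.7 to 80.0 and 92.7 to 121. Neutrophil and monocyte sums were thus lower, and lymphocyte sums higher, in every HADA library than in every control, on the background scale. In the centred fit 6 of 7 tested neutrophil and 6 of 7 tested monocyte genes were lower, where 6.68% of protein-coding starts were. Of tested T, B and NK cell genes 4 of 9, 4 of 4 and 1 of 3 were higher, where 19.5% of starts were. By fold rank 1 neutrophil gene was higher, 1 monocyte gene lower and 1 T cell gene higher. Ncr1, an NK cell gene, had peaks in 2 control lists and no HADA list. The sums of the 5 myeloid receptor genes overlapped, with 128.0 to 241 in control and 75.6 to 128.2 in HADA. The 8 dendritic cell genes overlapped, with 246 to 341 and 287 to 329, as the Xcr1 region did. The 8 eosinophil and basophil genes had 21.9 to 46.2 and 72.1 to 78.2. Within that list the values at Il5ra and Prg2 were higher in every HADA library than in every control, while Siglecf, the 1 gene of the list tested, fell by 0.59 on the log2 scale with an adjusted p of 0.035. The 6 erythroid and platelet genes had 74.5 to 90.0 and 148 to 176. Ptprc, Coro1a and Spi1, open in leukocytes at large, summed to 283 to 462 and 340 to 435. The part of cell composition in the receptor differences was not tested.

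**Figure D5:**
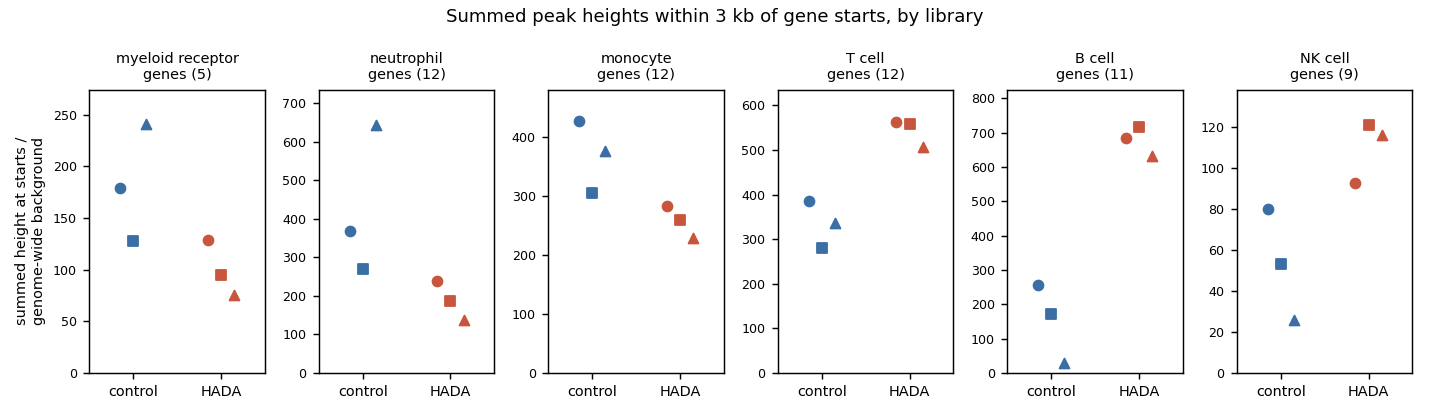
Summed summit pileup over the genome-wide background at gene starts, by library, for the myeloid receptor genes and for marker genes of blood cells, with genes lacking a peak counted as 0. Neutrophil and monocyte sums are lower and T, B and NK cell sums higher in all 3 HADA libraries, and control 3 (triangle) has the highest neutrophil and the lowest B cell sum.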

How the data were processed

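ATAC-seq libraries of mouse white blood cells, 3 control and 3 HADA, were analysed as deposited peak lists in GRCm39. Per the study's methods, Trimmomatic was used by the authors for adapter and quality trimming, Bowtie2 for mapping and Picard for dropping duplicates, and MACS2 then gave 1 list per library. Versions, options and the handling of repeated sequence are not given in the sources used here. The deposited columns hold, for each peak, a fold enrichment ratio over local background, −log10 p and q values and a display score, which was not used. The summit pileup and local background were solved from the deposited fold and −log10 p, a Poisson tail, for 100% of peaks to within a relative error of 5.0e-05. Only peaks above the caller's limit are listed, so depth is unknown and absent peaks carry no value.

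The shared regions were fitted with limma 3.58.1 (R 4.3.3), without covariates, on centred log2 pileup and on normal scores of the fold rank, with Benjamini-Hochberg adjustment over all shared regions. Single values were compared by two-sided exact permutation tests. Simulated data were also put through the limma step, and the outcome is not given here. All 8 receptors were named and all 45 regions counted, with genes of the ligand, receptor, signalling and neighbour lists named when past an adjusted p of 0.05, up to 6 a list, and the 5 most alike genes. The members and lists were chosen with earlier results of these data known. Replicate numbers were checked for pairing: deviations of same-numbered libraries correlated at -0.08, 0.08 and -0.38, so they were not treated as pairs. Alternatives were background or quantile scaling, the fold rank, stricter or equal-number peaks, joined summits, a replicate block and each library left out.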

Additional observations from a re-analysis of the deposited data

How the results depend on the processing

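Across the alternatives, 187 of 237 values for single shared regions kept their direction and their side of the threshold by height. Leaving out 1 library at a time, 801 to 4656 of all regions were higher (4291 with all libraries), 2056 to 5842 lower (5769), 0 to 2 cluster regions higher (2) and 4 to 10 lower (10). The fewest lower, 4, came without HADA 2, when the starts of Ccr1 and Ccrl2, the Ccr1l1 region and 3 between genes lost the call. Scaled to background, 7432 regions were higher against 4396 lower, and the Fyco1 start and region 3 between Xcr1 and Ccr1 turned to 0.011 and 0.11. With quantile scaling the Fyco1 start was 0.032. Without control 3 the Ccr9 region 2121 bp from its start was -0.20. By fold rank 1574 regions were higher and 1147 lower, with 1 cluster region lower, and the Ccrl2 start (0.20), regions 3, 4, 5 and 9 between Xcr1 and Ccr1 (0.68, 0.21, 0.43, 0.77) and the Ccr1 start (0.35) turned positive. Peaks with −log10 q of at least 5, equal numbers of peaks and the block each left 1 cluster region higher. The cause of these changes was not tested.

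In the fits of fold rank, leaving out 1 library gave 0 to 2230 regions higher, 0 to 1232 lower, and 0 to 2 cluster regions in each direction, from 3 and 1. Without any 1 HADA library limma called 0 regions by fold rank, with 2627 to 3572 regions at an unadjusted p under 0.05 in either direction. With 1 library left out, control or HADA, the rank difference ran from -0.23 to 0.20 for Xcr1, with 0.16 without HADA 1. It ran from -0.025 to 0.15 for the Lztfl1 start and from -0.059 to 0.27 for the Ccr9 region 2121 bp from its start. With the replicate number as a block, 0 regions were called by fold rank, 4257 and 3402 having an unadjusted p under 0.05 in the higher and lower direction, and the cluster had 0 in either direction, with 4 and 5 unadjusted. By height the block called 10 cluster regions lower, 1 higher, and the Lztfl1 start lost its call.

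HADA minus control in peaks at the cluster was 1.67, and turned to -2.67 with equal numbers of peaks and to -0.71 per 10000. Peaks with −log10 q of at least 5 gave 5 HADA-only cluster regions (from 3), joined summits gave 1 control-only (from 2), and equal numbers of peaks gave 2272 control-only regions in all (from 1181). The myeloid minus lymphocyte difference ran from -1.74 to -0.82 with 1 library left out, was -0.11 by deposited fold, and had no value with starts taken within 1 kb. Of the ligand, receptor and signalling genes 2 were higher and 4 lower, against 5 and 2 scaled to background, and 2 and 1 by fold rank.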
